A study of Mus musculus with 8 samples.

Results

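The nuclei described here were high in genes of the type I alveolar programme and in neither of the other alveolar programmes scored beside it. They numbered 1228 of 7168 nuclei with at least 1000 RNA molecules (unique molecular identifiers, UMIs), out of 7224 deposited nuclei. They were chosen from their own RNA. For each nucleus the UMIs per 10000 of Ager, Hopx, Rtkn2, Clic5 and Lmo7 were summed to a type I score. The same was done for Sftpb, Napsa, Abca3, Lamp3 and Slc34a2 (type II score) and for Krt8, Krt18, Krt19, Cldn4 and Sfn (transitional score). A type I only nucleus was in the top quartile of the type I score and outside the top quartile of both others. It also held fewer than 5 Sox9 UMIs and less than 50 UMIs per 10000 of the airway secretory genes Scgb3a1 and Bpifa1 together. Because these values chose the nuclei, every RNA difference below is a description of the class and carries no test.

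The study grew mouse alveolarspheres from type II alveolar cells (ATII), seeded from young and from old mice, without serum or feeder cells. Infection on day 9 used an adeno-associated virus, either AAV9_Sox9Cre, carrying Sox9 together with Cre recombinase (labelled Sox9Cre, Sox9 overexpression), or AAV9_Cre, with Cre alone (labelled Cre, control). All cultures then spent 4 days in ATII differentiation medium, which is meant to turn type II into type I cells, and live tdTomato+ cells were sorted by flow cytometry, so every group carries Cre and the tdTomato signal. Nuclei were then profiled for RNA and open chromatin at once (single-nucleus multiome). The labels list 8 samples, 2 of RNA and 2 of ATAC for each of the 2 viruses (4 groups). The deposited matrices pool all nuclei under 4 barcode prefixes, called libraries A to D here. The labels do not say which prefix belongs to which sample, virus or age of mouse, so no library was assigned to a group and the virus groups are not compared. The labels give neither the reporter allele nor the promoter that drives Cre.

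Type I cells are the flat cells that cover most of the gas-exchange surface of the lung. They arise from type II cells, which make surfactant, and in culture and after injury many cells pass through a transitional state rich in simple keratins. Mature type I cells are known for thin cytoplasm with many caveolae, a shared basement membrane with the capillary wall, sodium and water channels, and signals to the vessels below.

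The class made up 23.6% of eligible nuclei in library A (296 of 1253; 95% Clopper-Pearson interval 21.3 to 26.1%) and 23.8% in library B (181 of 760; 20.8 to 27.0%). It made up 14.3% in library C (460 of 3228; 13.1 to 15.5%) and 15.1% in library D (291 of 1927; 13.5 to 16.8%). The intervals cover counting error only. The intervals of A and B lay above those of C and D, and the distance between them moved with where the limits were set. With the top quartiles taken within each library, the shares of libraries A to D were 18.4, 19.6, 15.9 and 17.1%. Eligible nuclei over the Sox9 limit came mainly from 2 libraries: 1 nucleus in A, none in B, 197 in C and 114 in D held 5 or more Sox9 UMIs. Among nuclei in the top quartile of the type I score, 0, 0, 6 and 8 of libraries A to D did. Before either limit, 36.8, 32.8, 20.2 and 22.4% of eligible nuclei were in that top quartile. Over the airway limit were 50 eligible nuclei in C and 49 in D and none in A or B. Of nuclei in the top quartile of the type I score, 1 was over it. Counted over nuclei under both limits, the share was 15.4% in C and 16.5% in D.

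**Figure D1:**
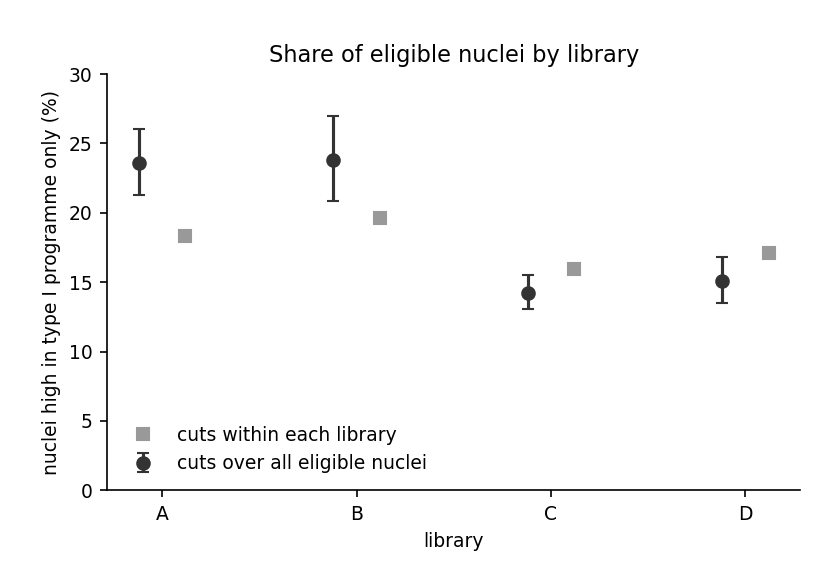
Share of eligible nuclei (percent, vertical axis) that were type I only in each of the 4 libraries, with the top quartiles taken over all nuclei or within each library. Bars are 95% Clopper-Pearson intervals; the 4 shares lie between 14.3 and 23.8% with common limits and between 15.9 and 19.6% with limits set within each library.

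The libraries stood apart in Sox9, the overexpressed gene. Among all other eligible nuclei Sox9 stood at 0.0185, 0.0181, 1.2 and 1.05 UMIs per 10000 in libraries A to D. Within the class, whose rule already left out nuclei with 5 or more Sox9 UMIs, no nucleus of A or B had one. Counts of 0 among 296 and 181 nuclei allow up to 1.01% and 1.66% of nuclei with a Sox9 UMI, which is no limit on nuclei that express the gene. A Sox9 UMI was counted in 84 of the 460 nuclei of C (18.3%) and in 43 of the 291 nuclei of D (14.8%). These values come from the data and did not place any library in a group. All comparisons below were therefore made within each library, and each is given for all 4.

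The type I score had no gap at its limit. The limit was 80.1 UMIs per 10000, the lowest member stood at 80.16 and the nearest nucleus outside it at 80.12. Within 10% above the limit lay 149 members, and within 10% below it 157 nuclei that met all other limits. The median member scored 116.7 and the highest 407.1. Of the 1792 nuclei in the top quartile of the type I score, 532 were also in the top quartile of the transitional score and 23 in that of the type II score. The overlap with the transitional score was only a little above the share that a top quartile holds among all eligible nuclei. The overlap with the type II score was far below that share.

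Members were sequenced a little less deeply than other nuclei. Median UMIs per nucleus of libraries A to D were 8958, 11129, 9817 and 9611 in members and 10290, 11918, 11389 and 12021 in other nuclei. The median share of mitochondrial UMIs was 5.09, 4.99, 5.61 and 5.68% in members and 5.02, 5.26, 6.22 and 5.93% in other nuclei. Depth differed in the same direction in all 4 libraries. No doublet caller was run. Identical barcode sequences occurred in more than 1 library 20 times (40 nuclei, 9 of them members).

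Of the 5 genes that define the score, Ager, which encodes the receptor for advanced glycation end products and is a standard type I marker, set most of it. Ager stood at 72.9, 79.8, 66.7 and 68.9 UMIs per 10000 in the members of libraries A, B, C and D, against 26.4, 26.5, 16.8 and 18.2 in all other nuclei. It made up the largest number of score UMIs in 85.8% of members, and Lmo7, a cell junction and actin scaffold, in 13.1%. All 5 genes were detected in 53% of members and 4 of them in a further 41.6%. Only 3 members had UMIs of 1 score gene alone. How many members Ager by itself carried over the limit was not tested.

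Rtkn2, a type I cell marker, had the steepest difference of the 5. Its level was 2.40, 2.16, 2.67 and 2.81 UMIs per 10000 in members and 0.375, 0.271, 0.336 and 0.350 in other nuclei, 6.42- to 8.05-fold. Hopx, a homeodomain protein of type I cells, was 2.69- to 3.56-fold higher, Clic5, an actin-linked chloride channel family member, 2.54- to 3.86-fold, and Lmo7 2.02- to 2.56-fold. To free each gene from its own choice, the nuclei were chosen again by the other 4 genes. Rtkn2 then stayed 5.62- to 6.80-fold higher, Hopx 2.37- to 3.05-fold and Clic5 2.36- to 3.60-fold. Ager was 1.86-, 2.04-, 2.79- and 2.72-fold higher and Lmo7 1.58-, 1.72-, 2.11- and 1.80-fold, so these 2 genes no longer reached 2-fold in every library.

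Across all genes, a gene was called when it differed at least 2-fold in the same direction in each of the 4 libraries. Genes with at least 20 UMIs in each library were tested, and a called higher gene also had more than 3 member UMIs in each. Of 12163 such genes, 114 were called higher in the class (0.937%) and 246 lower (2.02%), and the median gene was at 1.00-fold. Since the same UMIs chose the nuclei, these counts are descriptions. With the scores taken after each nucleus was thinned to 1000 UMIs, 87 genes were called higher, 77 of them among the 114, and 187 lower, 170 of them among the 246. When the UMIs were split at random into 2 equal sets, with nuclei chosen from one set and levels taken from the other, 108 genes were called higher, 89 of them among the 114, and 178 lower, 161 of them among the 246. The gene lists below name what the called genes are known for. They were drawn up with earlier results of these data known, so their counts are descriptions as well.

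Beyond the 5 score genes, 35 other genes known from type I cells were listed and 32 could be tested. Of these, 16 were called higher and none lower, 29 were above 1-fold in every library, and the median was 2.34-fold. Of all 12163 tested genes, 2969 were above 1-fold in every library and 2852 below. S100a6, a small calcium-binding protein also rich in transitional cells, was the 1 gene below 1-fold in all libraries (0.62, 0.76, 0.80 and 0.53). Several widely used type I markers were higher by less than the 2-fold rule asks in 1 or more libraries. The water channel Aqp5 was 1.46- to 1.85-fold higher, the membrane protein Emp2 1.70- to 2.28-fold and the tight junction protein Cldn18 1.61- to 2.17-fold.

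Pdpn and Igfbp2, a pair of classical markers, were barely measured in these nuclei. Podoplanin (Pdpn), a surface glycoprotein, was called higher at 0.162, 0.189, 0.212 and 0.202 UMIs per 10000 against 0.0794, 0.0788, 0.0615 and 0.0863. It had a UMI in 12.1% of members. After each nucleus was thinned to 1000 UMIs, 2.12% of members and 3.03% of the 99 airway secretory nuclei had a Pdpn UMI. Those 99 nuclei, all from libraries C and D, are too few to tell these shares apart. Igfbp2, an insulin-like growth factor binding protein that marks mature type I cells, had 24 UMIs in all members, in 0.814% of them, and was not tested. By contrast, Ager had a UMI in 100% of members, Clic5 in 97.7%, Limch1 in 96.0%, and Hopx and Akap5 in 91.6% each.

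**Figure D2:**
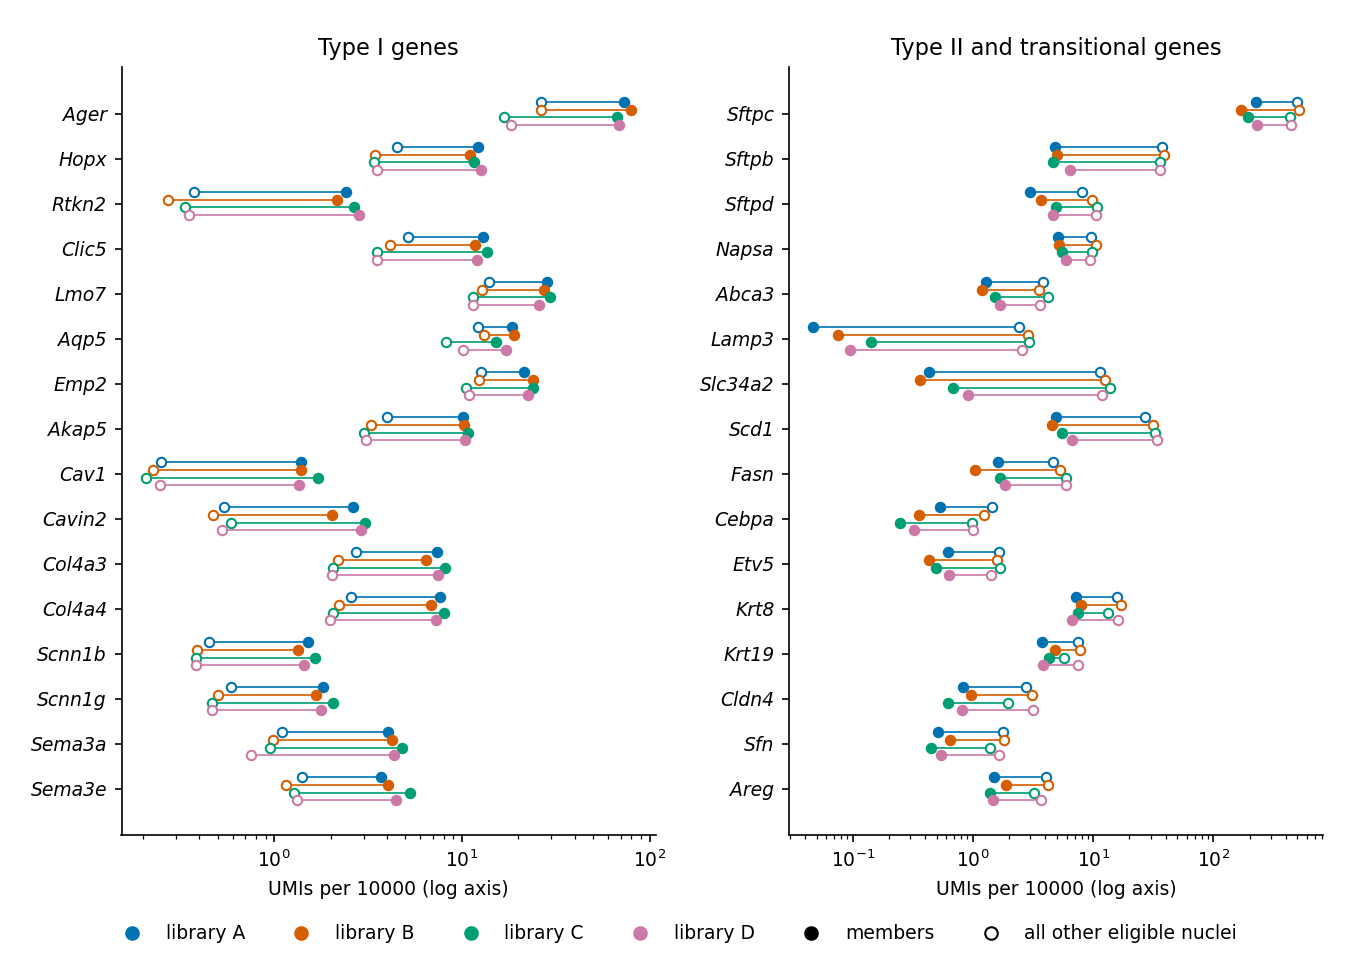
Level of 16 type I genes and 16 type II or transitional genes in UMIs per 10000 (log axis), with 1 point per library; filled points are type I only nuclei and open points all other eligible nuclei. For Cav1 the filled points lie between 1.35 and 1.71 and the open ones between 0.207 and 0.248; for Lamp3 the order is turned around.

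Genes of caveolae, the small flask-shaped membrane pits that are dense in type I cells, were among the steepest. Cav1, the caveolin that forms the coat, stood at 1.39, 1.39, 1.71 and 1.35 UMIs per 10000 in the class and at 0.248, 0.228, 0.207 and 0.247 in other nuclei (5.45- to 8.28-fold). Cavin2, an adaptor of that coat, stood at 2.62, 2.04, 3.05 and 2.91 against 0.537, 0.471, 0.591 and 0.525. Cav2 was 2.35- to 2.67-fold higher. In each of the 3 genes every library of the class was above every library of the remainder. Of 8 caveola genes 3 were called, with a list median of 1.95-fold. Cavin3 was at 0.59- to 0.82-fold, and Pacsin2, a membrane-bending protein, at 0.97- to 1.09-fold.

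Collagen IV chains split by type. Col4a3 and Col4a4, the chains of the mature basement membrane between epithelium and capillary, were called higher. Col4a3 stood at 7.35, 6.43, 8.13 and 7.47 UMIs per 10000 against 2.74, 2.18, 2.06 and 2.04. Col4a4 was 2.99- to 3.89-fold higher. Col4a1 and Col4a2, the chains found in basement membranes generally, were at 0.82- to 1.1-fold and 0.93- to 1.2-fold. The laminin chain Lama3 (1.90- to 3.36-fold) and the integrin ligand Npnt (1.95- to 3.00-fold) missed the 2-fold rule in 1 or 2 libraries, and 2 of 17 tested basement membrane genes were called, with a list median of 1.59-fold.

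Sodium channel subunits were higher together. Scnn1g stood at 1.81, 1.66, 2.05 and 1.77 UMIs per 10000 against 0.586, 0.502, 0.469 and 0.469, and Scnn1b was 3.36- to 4.28-fold higher. Scnn1a, the subunit shared with type II cells, was 1.84- to 2.27-fold higher and not called. Clic3, another chloride channel family member, was 2.59- to 3.29-fold higher. The sodium pump subunit Atp1b1 was called lower at 1.94, 2.35, 2.38 and 2.46 against 4.12, 4.82, 6.28 and 5.84. Of 14 tested transport genes 4 were higher, Clic5 of the score among them, and 1 lower.

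Among guidance and vascular signals, 2 class 3 semaphorins, secreted cues for vessels and axons, stood out. Sema3a was at 4.05, 4.26, 4.81 and 4.32 UMIs per 10000 against 1.09, 0.985, 0.95 and 0.753, and Sema3e was 2.64- to 4.15-fold higher. Vegfa, the growth factor through which type I cells act on capillaries, lay at the threshold with 1.99-, 1.99-, 2.14- and 2.07-fold. The semaphorin receptor Nrp1 was at 0.52- to 0.60-fold. These 2 semaphorins were the called genes among 14 tested, whose median was 1.15-fold.

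Several further genes on the type I and cytoskeletal lists were called higher. Akap5, an anchor for protein kinase A, was 2.55- to 3.61-fold higher, Limch1, an activator of non-muscle myosin, 2.98- to 3.83-fold, and Arhgef26, a guanine exchange factor, 2.33- to 2.89-fold. Sec14l3, a lipid transfer protein, was at 2.57, 2.39, 3.09 and 2.74 UMIs per 10000 against 0.591, 0.495, 0.416 and 0.474. Pmp22, a tetraspan membrane protein, was 4.23- to 7.27-fold higher. The actin genes Tpm2, Pdlim1 and Pdlim7 were called lower. Of 22 tested cytoskeletal genes, 4 were higher (2 of them score genes) and 3 lower, with a median of 0.824-fold, so the list had no common direction.

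Type II genes were lower in the class, which by its rule holds no nucleus with a high type II score. Slc34a2, a phosphate transporter, stood at 0.433, 0.364, 0.678 and 0.901 UMIs per 10000 against 11.3, 12.5, 13.7 and 11.9. Lamp3, a protein of the surfactant storage organelle, was at 0.0469, 0.0756, 0.142 and 0.0945 against 2.42, 2.87, 2.94 and 2.56. Of 24 tested type II genes that no score used, 18 were called lower and none higher, all 24 were below 1-fold in every library (2852 of all 12163 tested genes were), and the median was 0.256-fold. Lyz2, a lysozyme, was 0.02- to 0.05-fold, and Etv5, a factor downstream of FGF signals, 0.27- to 0.45-fold.

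Surfactant protein C remained high. Sftpc stood at 226, 169, 192 and 230 UMIs per 10000 in the class and at 492, 512, 430 and 441 in other nuclei, and was not called lower because library D was at 0.52-fold. The airway secretory nuclei, which should not make it, held 30.3 UMIs per 10000 (29.5 to 31.2, exact Poisson interval, libraries C and D). Free RNA in the droplets can give such a level, but its part in any class was not tested. In C and D the class stood above this level, while A and B held no airway secretory nuclei to compare with. After thinning to 1000 UMIs, a Sftpc UMI was found in 89.6% of members, 89.4% of other nuclei and 68.7% of airway secretory nuclei. For Slc34a2 the thinned shares were 5.70%, 34.3% and 7.07%, but this gene is part of the type II score that the rule kept low in members. Ager was found in 98%, 66.4% and 14.1%. Median UMIs before thinning were 9705 in members and 14517 in airway secretory nuclei.

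Transitional genes split. Krt8, part of the transitional score that the rule kept out of its top quartile, stood at 7.13, 7.89, 7.52 and 6.70 UMIs per 10000 against 15.7, 17, 13.4 and 16, but 0.56-fold in library C kept it from being called. Of 25 tested genes on the transitional list, which holds some score genes, 8 were called lower and none higher, 16 were below and 4 above 1-fold in every library, and the median was 0.696-fold. Summed over this list, the median nucleus stood at 91.2, 113, 97.3 and 104 UMIs per 10000 in members and 105, 108, 96.0 and 120 in other nuclei, so members of B and C were the higher. For the 5 score genes it stood at 15.6, 17.2, 15.1 and 14.2 against 20.8, 22.2, 12.7 and 18.2, higher in members of C. The called genes outside the score were Areg, an EGF receptor ligand (0.37- to 0.45-fold), the NF-kappaB regulator Tnip3, Fn1 (fibronectin), Plaur (urokinase receptor), the stress gene Nupr1 and Sprr1a. The cell cycle inhibitor Cdkn1a was at 0.97- to 1.30-fold, with 13.6 to 17.1 UMIs per 10000 in the class.

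Signalling lists held calls in both directions, to be set beside the 0.937% higher and 2.02% lower among all tested genes. In the WNT list of 19 tested genes, the ligand Wnt3a was higher (0.170, 0.170, 0.216 and 0.189 against 0.0397, 0.0271, 0.0315 and 0.0228 UMIs per 10000) and the feedback gene Nkd1 lower. The target Axin2 had a UMI in 2.4% of members. In the FGF list Fgf18 was higher and Etv4 and Etv5 lower, out of 12. Etv4, with 7, 5, 7 and 8 member UMIs in A to D, lost its call under 10 alternative settings. Among 20 TGF-beta and BMP genes 3 were lower, Bmp6 and Bambi among them, and among 14 YAP targets F3 (tissue factor) was lower. Among 23 lipid synthesis genes Fasn, Scd1, Elovl1 and Fads2 were lower, with a list median of 0.628-fold. Scd1, a fatty acid desaturase used for surfactant lipid, was at 4.88, 4.55, 5.53 and 6.63 against 27.0, 31.2, 32.8 and 33.9.

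Few lung transcription factors passed the 2-fold rule. Nkx2-1, the lung lineage factor that both alveolar types need, was at 5.10, 5.18, 4.44 and 4.90 UMIs per 10000 against 4.08, 4.05, 3.51 and 3.69 (1.25- to 1.33-fold). Of 32 tested factors 1 was higher, Hopx, which is a score gene that chose the class. The 4 lower were Cebpa, a factor of type II differentiation, Etv5, Elf5 and Ehf. Tead1, the DNA partner of YAP, was at 1.68- to 1.98-fold and Tead4 at 1.88- to 2.79-fold. Among 10 tested cell cycle genes none was called and the median was 0.814-fold. Among 17 tested p53 and senescence genes Cdkn2b, an inhibitor of cyclin-dependent kinases, was higher (2.20- to 2.86-fold), and 2 were lower, Gdf15 among them. Csf1r, the receptor for macrophage colony-stimulating factor, and Ifit3, an interferon-induced gene, were called higher at low levels, with a UMI in 4.15% and 16.4% of members, and lost their call under 9 and 7 alternative settings.

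Summed markers of several other cell types were low in the class, but not all of them were lower than in other nuclei. Over 11 mesenchymal genes the level was 0 to 0.0346 UMIs per 10000 by library, over 8 endothelial genes 0.0108 to 0.0787, over 6 basal cell genes 0.00361 to 0.0157, and over 10 immune genes 0.116 to 0.241. In all other nuclei these sums were 0.0233 to 0.154, 0.0343 to 0.0452, 0.00905 to 0.0687 and 1.01 to 3.12, so of these 4 sums the endothelial one reached higher in members. The 8 ciliated genes summed to 0.357, 0.501, 0.443 and 0.708 in members of A to D and to 0.214, 0.211, 0.516 and 0.994 in other nuclei, higher in members of A and B. The 6 neuroendocrine genes summed to 0.0283 to 0.132 against 0.0822 to 0.196, higher in members of B. The 13 cartilage genes summed to 1.55 to 1.69 against 0.767 to 1.5, higher in members of every library. Kdr, Ednrb, Pdgfrb, Lum, Tcf21, Twist1, Krt14, Marco, C1qa, Upk3b, Wt1 and Lrrn4 were at 0 in all members, which allows up to 0.00227 UMIs per 10000. The 12 airway secretory genes summed to 1.77, 1.88, 2.97 and 4.87 in the class and to 1.56, 1.44, 20.9 and 51.0 in the remainder. The rule kept nuclei over the airway limit out of the class, and the remainder held all of them, 50 in C and 49 in D. The difference in C and D was thus set by choice, and in A and B members were the higher. The mesothelial list summed to 0.347, 0.486, 0.903 and 0.460 in members of A to D, all of it from Msln, which had a UMI in 15.5% of members. In other nuclei the list summed to 0.416, 0.454, 0.510 and 0.911, so members of B and C were the higher.

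Outside all lists, the leading higher genes were chosen by their smallest fold in the 4 libraries among genes found in at least 20% of members. Phactr1, a regulator of actin and protein phosphatase 1, was the steepest at 4.51- to 6.87-fold, with 1.14, 0.935, 1.38 and 1.1 UMIs per 10000 against 0.253, 0.195, 0.201 and 0.176. Fbln5, an elastic fibre protein, was 3.47- to 5.26-fold higher and Dnah11, a dynein heavy chain known from cilia, 3.42- to 5.30-fold. Sh3kbp1, an endocytic adaptor, Tmem108, Reps2, Fam189a2, Galnt18, an O-glycosylation enzyme, Pxdn, a matrix peroxidase, Zdhhc14, a palmitoyltransferase, and 4 genes without a settled name (2210011C24Rik, 9030404E10Rik, B230208H11Rik and C430014B12Rik) had median folds from 2.92 to 3.99. The leading lower genes were the iron binders Lcn2 (0.01- to 0.05-fold) and Trf, Atp6v1c2, a proton pump subunit, Tspan11, Slco4c1, the lipid receptors Cd36 and Cd14, Slpi, a protease inhibitor, Chsy1 and Inpp4b. The largest fold of these 10 genes in any library was 0.220, for Chsy1 in B.

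The called genes were also compared within the class, as a description, since the score that split the members had chosen them. Members were split in each library at their median type I score, with median scores of 144 to 154 above the split and 94.9 to 100 below it. Of the 109 called higher genes outside the score, 78 were higher above the split in every library, with a median of 1.37-fold, against 1324 of all 12163 tested genes and a median of 0.994-fold. Of the 240 called lower genes outside the score, 28 were higher above the split in every library, with a median of 0.882-fold. Median UMIs per nucleus were lower above the split in A, B and D (8243, 10554 and 9250 against 9223, 12144 and 10062) and 9845 against 9746 in C. The libraries differed little inside the class: of 7047 genes found in at least 20% of members of some library, 79 (1.12%) differed 2-fold or more between the highest and lowest library. Of the 84 called higher genes among them, none did.

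Nuclei high in both the type I and the transitional score share the high type I score with the class (526 nuclei; 158, 63, 178 and 127 in libraries A to D). Their keratins were higher by choice: Krt8 stood at 32.3, 35.0, 36.1 and 39.6 UMIs per 10000 there. Many type I genes were as high there as in the class. Emp2 stood at 26.4, 25.9, 26.8 and 26.3 against 21.5, 23.8, 23.8 and 22.5 in the class, Aqp5 at 20.6, 25.6, 18.7 and 20.3 against 18.6, 19.0, 15.2 and 17.1, and Cldn18 at 19.3, 19.9, 19.1 and 22.2 against 18.9, 20.9, 20.5 and 21.3. Emp2 and Aqp5 were thus a little lower in the class than beside it.

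Other genes were much higher in the class than in nuclei with both programmes. Sema3a stood at 1.26, 1.44, 1.51 and 1.82 UMIs per 10000 there against 4.05, 4.26, 4.81 and 4.32 in the class, and Rtkn2 at 0.642, 0.677, 0.439 and 0.875 against 2.40, 2.16, 2.67 and 2.81. Galnt18 was 4.72- to 6.60-fold higher in the class, and Cav1 stood at 0.556, 0.815, 0.643 and 0.835 there against 1.39, 1.39, 1.71 and 1.35. In the other direction, Ptgs2 (cyclooxygenase 2) was at 0.115- to 0.153-fold, and F3 stood at 0.816, 1.02, 0.680 and 0.690 in the class against 6.06, 5.21, 4.83 and 5.99. Areg stood at 1.51, 1.89, 1.39 and 1.47 against 6.37, 7.29, 5.61 and 8.15. Over 9893 tested genes, 71 were called higher in the class (0.718%) and 78 lower (0.788%). With 1 library left out, 114 genes were called higher without A, 133 without B, 94 without C and 77 without D. A call then has fewer libraries to hold in, which by itself can raise the count.

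Against the 2 classes high in 1 other programme more genes were called, and against nuclei high in none fewer were called higher. Against type II only nuclei (1715), 541 of 10649 genes were higher (5.08%) and 381 lower (3.58%). Against transitional only nuclei (1167), 253 of 10510 were higher (2.41%) and 266 lower (2.53%). Against nuclei high in no programme (2085), 54 of 10713 were higher (0.504%) and 85 lower (0.793%). Of the 114 genes called higher than in all other nuclei, 101 were also called against type II only nuclei, 85 against transitional only, 47 against no programme high and 15 against type I and transitional nuclei.

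A set of 5 genes, Sema3a, Rtkn2, Wnt3a, Phactr1 and the uncharacterised transcript C330002G04Rik, were called higher in the class than in each of these 4 classes. Phactr1 was at 0.218, 0.144, 0.174 and 0.228 UMIs per 10000 in type II only nuclei, 0.140, 0.0932, 0.0571 and 0.0617 in transitional only, 0.218, 0.444, 0.304 and 0.242 in type I and transitional, and 0.366, 0.212, 0.313 and 0.234 in no programme high nuclei. Every value of these classes was below the lowest library of the class, 0.935. Wnt3a stood at 0.0426 to 0.0649 in no programme high nuclei, its highest level outside the class. Rtkn2 was among the genes that chose the class.

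**Figure D3:**
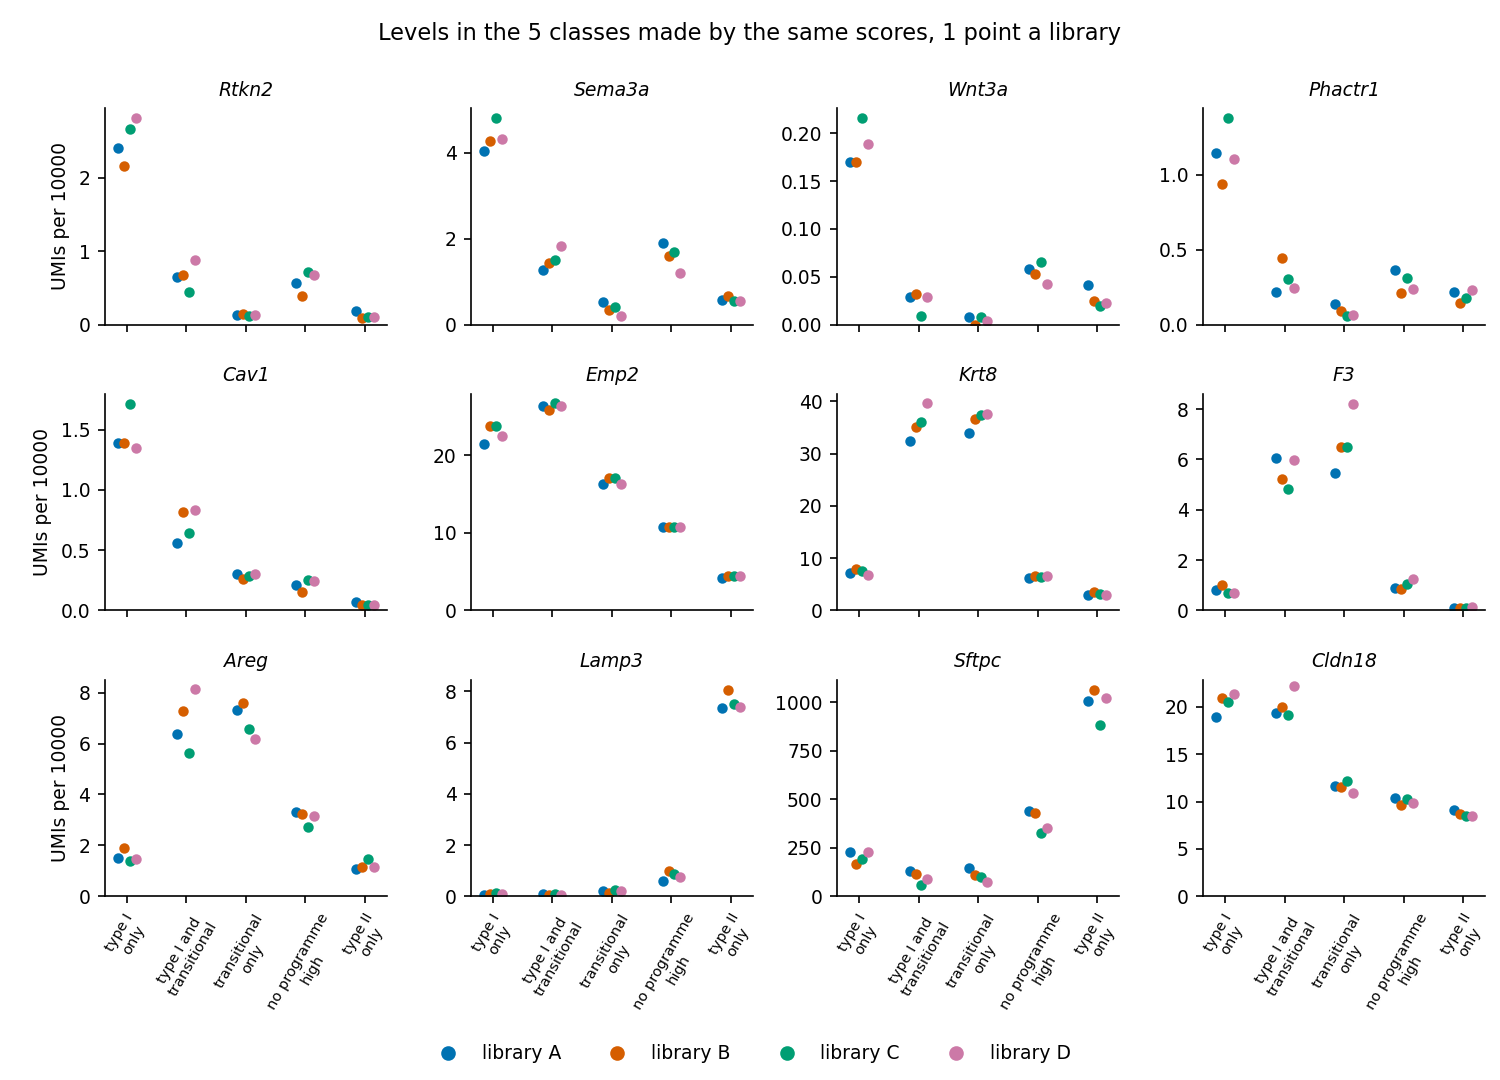
Level of 12 genes in UMIs per 10000 (linear axis) in the type I only class and in 4 other classes made from the same scores, with 1 point per library. Sema3a, Rtkn2, Wnt3a and Phactr1 peak in the type I only class, Emp2 and Cldn18 are as high in type I and transitional nuclei, and Krt8, F3 and Areg are high in both transitional classes.

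Sftpc, which no score used, was also higher in the class than in nuclei with both programmes. It stood at 131, 113, 60.6 and 91.7 UMIs per 10000 in type I and transitional nuclei, below the 169 to 230 of the class in every library, and at 438, 430, 324 and 352 in no programme high nuclei.

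Open chromatin was not used to choose the class, though it comes from the same nuclei. Median ATAC counts per nucleus were 5686, 3619, 8953 and 13182 in members of A, B, C and D and 4249, 3849, 9907 and 14179 in other nuclei. Peak counts were scaled to 10000 counts in peaks. A peak was called when it differed at least 1.5-fold the same way in every library in which at least 10 member counts would be expected at equal openness, with 2 such libraries or more. Of 86812 tested peaks, 1857 were more open in the class (2.14%) and 4879 less open (5.62%). The second count was smaller without libraries C and D: 1912 peaks were less open without C and 1956 without D. Members of C and D held 4675914 and 4451722 ATAC counts, those of A and B 2659112 and 1063326. Leaving out C or D thus leaves fewer counts with which a peak can be tested. The number of peaks still tested then is not given, so these counts cannot be read as shares.

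Called peaks lay away from gene starts. Of more open peaks with a known neighbour 1.06% overlapped a start site, of less open peaks 2.50%, and of all tested peaks 14%. The median distance to a start site was 27577 bp for more open peaks, 21773 bp for less open and 14695 bp for all tested peaks. More open and less open peaks thus both lay farther out than tested peaks did. They also held fewer counts, with medians of 293 and 286 per peak against 486 for all tested peaks. The part of these lower counts in the positions was not tested.

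Genes higher in RNA had more open chromatin around them. For each gene the ATAC counts in peaks over the gene and 2000 bp on either side were summed. Of 16191 such windows, 13.3% were above 1-fold in every library and 14.5% below. Among genes called higher in RNA, 72 of 102 windows were above 1-fold in every library (70.6%), with a median of 1.16-fold. Without the 5 score genes it was 69 of 97. Among genes called lower, 123 of 226 windows were below 1-fold in every library (54.4%), with a median of 0.903-fold. The shifts were small beside those in RNA.

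**Figure D4:**
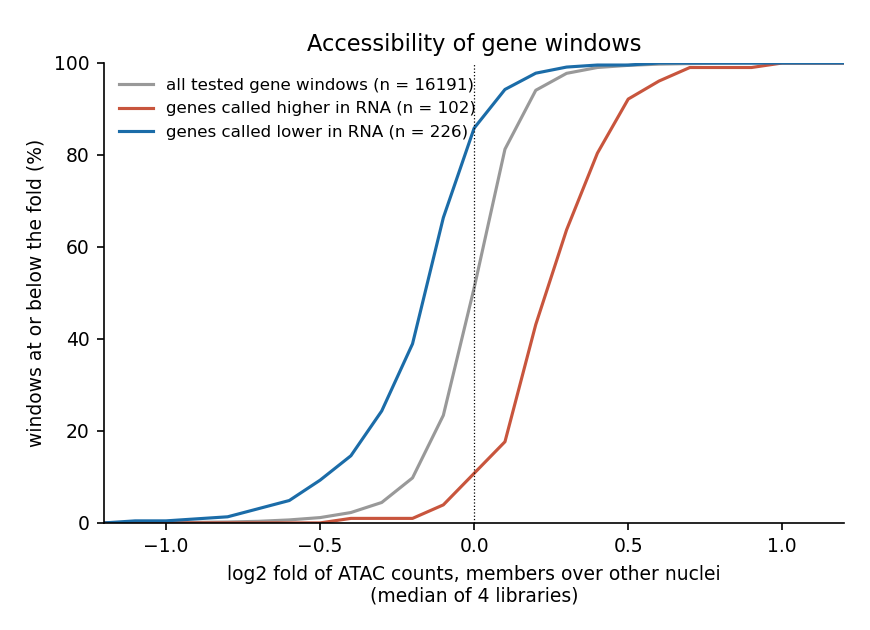
Cumulative share of gene windows (percent) by log2 of the median fold over libraries in ATAC counts, class over other nuclei, for all 16191 tested windows, 102 of genes called higher in RNA and 226 of genes called lower. The curve of higher genes lies to the right (median 1.16-fold) and that of lower genes to the left (median 0.903-fold) of the curve of all windows.

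Single peaks followed the same order. In the windows of genes called higher, 77 of 830 tested peaks were more open (9.28%), against 2.04% of peaks in the windows of all tested genes. At least 1 more open peak was present at 46 of 102 genes called higher (45.1%) and at 7.05% of all tested genes. At least 1 less open peak was present at 15 of the 102 (14.7%) and at 14.1% of all tested genes. Genes called higher held more tested peaks each, 830 over 102 genes against 47840 over 11653. The part of this in the shares per gene was not tested. Spock2, a matrix proteoglycan of type I cells, had a more open peak at chr10:60113879-60114812, 5164 bp from a start site, at 4.4-, 3.23-, 2.54- and 3.83-fold on 31, 12, 35 and 44 member counts. At Vegfa a peak 919 bp from a start site was 1.61- to 2.33-fold more open. Clic5 had 2 more open peaks within its 27, Phactr1 3 within 25, and Col4a3, Scnn1g and Fgf18 1 each. A peak without a gene called in its window, nearest to D030068K23Rik on chromosome 8, was 6.24-, 5.59-, 2.96- and 2.91-fold more open. Libraries A and B held too few counts there to enter the call.

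The 5 score genes differed among themselves in chromatin. The Ager window was 1.89-, 1.75-, 1.85- and 1.94-fold more open and both of its peaks were called. The Clic5 window was at 1.34-, 1.25-, 1.18- and 1.27-fold, and the Hopx window at 1.14-, 1.02-, 1.08- and 1.01-fold. The Rtkn2 window was at 0.937-, 0.983-, 0.897- and 0.969-fold although its RNA differed most of the 5. Of 9 Rtkn2 peaks none was called more open and 2 were called less open. Lmo7 had 2 more open and 2 less open peaks among 35. Ager was thus higher in both readouts, and Rtkn2 in RNA alone.

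Other type I genes lay between these. The windows of Sec14l3 (1.41, 1.62, 1.64 and 1.61), Scnn1g (1.32, 1.44, 1.37 and 1.5), Cav1 (1.27, 1.17, 1.71 and 1.47) and Col4a3 (1.38, 1.46, 1.29 and 1.28) were more open in every library. At Pdpn 1 of 7 peaks was called, and it was less open (0.411-, 0.362-, 0.485- and 0.648-fold). On the type II side the Slc34a2 window was at 0.621, 0.661, 0.810 and 0.742 and the Lamp3 window at 0.774, 0.591, 0.733 and 0.756. The Sftpc window was at 0.770, 0.662, 0.929 and 1.00.

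**Figure D5:**
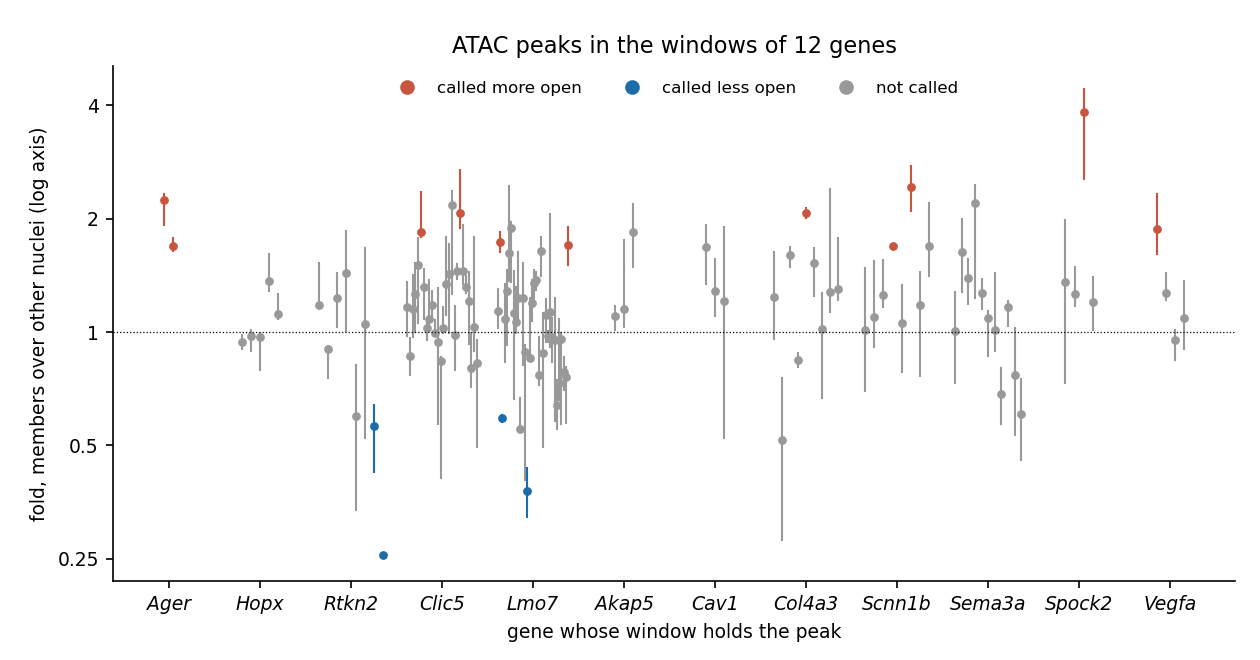
Fold in ATAC counts of each peak in the windows of 12 type I genes, class over other nuclei (log axis); points are the median and bars the lowest and highest of the libraries with at least 10 expected member counts. Both Ager peaks, the leading Spock2 peak and a Vegfa peak are called more open (red), while both called peaks at Rtkn2 are less open (blue).

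More open peaks over promoters were few. Among 75 genes called higher with a tested promoter peak, 2 had a more open one, Ager and C330002G04Rik, against 4 of all 8984 tested genes. The Ager peak, chr17:34597408-34598244, covers the start site. It held 100, 37, 149 and 150 member counts in A, B, C and D, at 1.70-fold (95% exact interval 1.32 to 2.19), 1.64-fold (1.08 to 2.45), 1.67-fold (1.39 to 2.00) and 1.78-fold (1.47 to 2.14). The other Ager peak, chr17:34595816-34596746, lies in the neighbouring gene Pbx2, 1104 bp from a start site, at 1.93- to 2.32-fold. The C330002G04Rik peak, chr19:23058115-23059012, was 1.54- to 1.86-fold more open on 64, 25, 134 and 117 member counts. The 250 bases before a RefSeq start of each gene (GRCm38.p6) are shown because these are promoters with more open chromatin, Ager on the plus strand at chr17:34597600-34597849 and C330002G04Rik on the minus strand at chr19:23058093-23058342. The peak covers most of the C330002G04Rik bases shown, but the start that they precede lies just outside it. C330002G04Rik has further RefSeq starts that lie inside the peak. The 250 bases before these, chr19:23058246-23058495 and chr19:23058248-23058497, are not shown and held no motif match.
Ager: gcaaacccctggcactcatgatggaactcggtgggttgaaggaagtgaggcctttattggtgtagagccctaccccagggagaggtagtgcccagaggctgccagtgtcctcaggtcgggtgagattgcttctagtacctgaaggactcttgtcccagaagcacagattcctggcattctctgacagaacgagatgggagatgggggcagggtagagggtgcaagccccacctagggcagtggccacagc
C330002G04Rik: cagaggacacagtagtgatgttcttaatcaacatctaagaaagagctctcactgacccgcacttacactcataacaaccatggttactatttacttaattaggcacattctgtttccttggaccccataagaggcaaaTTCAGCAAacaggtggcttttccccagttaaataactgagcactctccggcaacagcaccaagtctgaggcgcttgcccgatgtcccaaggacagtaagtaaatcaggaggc
Capitals mark a match to the C/EBP motif TTGCNNAA on the opposite strand. Ager held no match to any of the 6 motifs searched.

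The motifs were searched on both strands of the 300-base RefSeq promoter windows (250 bases before to 50 after the start) as TEAD GGAATG, NKX2-1 CTCAAG, AP-1 TGANTCA, KLF GGGCGG, C/EBP TTGCNNAA and FOX TGTTTAC. The shares of windows with a match are given for the 123 windows of genes called higher, the 259 of genes called lower, the 12232 of tested genes and all 32851. They were 11.4, 14.3, 12.3 and 14.7% for TEAD, 12.2, 13.5, 14 and 15.9% for NKX2-1, and 51.2, 48.6, 62.3 and 35.7% for KLF. For C/EBP they were 9.76, 19.3, 8.44 and 10.8%, for AP-1 6.50, 13.5, 5.09 and 7.81%, and for FOX 1.63, 4.63, 2.66 and 3.65%. C/EBP and AP-1 matches were thus more frequent at genes called lower than at tested genes, a description with no test. A match describes the letters only.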

How the data were processed

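RNA and ATAC counts of 7224 nuclei came from 1 pooled matrix each. Both hold raw counts (UMIs per gene, ATAC counts per peak) as the authors deposited them. The submitters' processing notes name Signac 1.10.0, Seurat 4.3.0, Cell Ranger 6.0.1, mm10 and GRCm38 without their roles. The sources used here do not give the peak caller, the filter on nuclei or any doublet removal. Nuclei with under 1000 UMIs (56) were left out. Levels are summed UMIs per 10000, and folds were taken within each barcode prefix against all other eligible nuclei, with counts under 3 set to 3. The prefixes were named A to D in sorted order. Members held 2770030, 2117359, 5147690 and 3175963 UMIs in A, B, C and D. With 1 pooled matrix and no map from nuclei to samples there are no replicates, so thresholds are rules of size and no p-value is given. Exact Poisson and Clopper-Pearson intervals (95%) cover counting error only. The members and the gene lists (38 lists, 522 genes, 520 of them in the matrix) were chosen with earlier results of these data known. Genes were named from these lists and, outside them, as the 15 higher and 10 lower genes leading by their least favourable library.

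Gene positions and promoters came from RefSeq tables of GRCm38.p6. Of the matrix genes 26656 (82.6%) had a position, and 48.7% of promoter windows lay in a peak, against 8.51% after moving them by 20000 bp. The calling step was tested on simulated counts. Alternatives changed the score limits, the UMI minimum, thinning, the fold, the count minimum, the comparison nuclei, the libraries, the nuclei of highest depth and the window. Python 3.11.15, numpy 2.4.6, scipy 1.17.1 and pandas 2.3.3 were used. Lists of multiplexing oligos were not used. A few genes that the rules above would name are not reported here.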

Additional observations from a re-analysis of the deposited data

How the results depend on the processing

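No paired analysis was possible because no nucleus carries a sample or replicate number. Taking the top quartiles within each library gave shares of 18.4, 19.6, 15.9 and 17.1% for libraries A to D, and the top 20% gave 12.5% in C and 13.2% in D. Leaving out 1 library moved the share of A to between 22.5 and 24.3%, of B to 22.1 to 25.3%, of C to 13.6 to 15.5% and of D to 13.8 to 16.3%. With 3-fold in place of 2-fold, 23 genes were higher and 97 lower than in all other nuclei, and 11 higher and 24 lower than in type I and transitional nuclei. A minimum of 100 UMIs left 160 genes lower than in all other nuclei, and 34 higher and 34 lower than in type I and transitional nuclei. With scores after thinning, 36 genes were higher than in type I and transitional nuclei, and without a minimum 120 were lower.

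Leaving out 1 library gave 122 to 166 genes higher and 271 to 322 lower than in all other nuclei. Against type I and transitional nuclei it gave 77 to 133 higher, with 114 without A and 133 without B, and 75 to 115 lower. It gave 1329 to 2647 more open and 1912 to 6085 less open peaks, with 1912 without C and 1956 without D. Fewer libraries also means fewer conditions to meet, and fewer libraries in which a peak can reach the counts needed for testing. Asking for 20 expected counts left 1020 more open and 2331 less open peaks, and 2-fold left 305 and 1669. Chosen by the other 4 genes, the median fold was 2.38 for Ager and 1.76 for Lmo7, and with the UMIs split in 2 sets 2.24 for Lmo7; these missed 2-fold in 1 library or more. For the remaining alternatives the cause of a change was not tested. Windows of 10000 bp on either side were above 1-fold in every library for 76.7% of higher genes and below it for 56.0% of lower ones, and with each peak as 0 or 1 for 68.0% and 49.3%. Over named genes and alternatives, 1426 values kept their call, 134 lost it and none turned direction. Etv4 lost its call under 10 alternatives, Csf1r under 9, Ifit3 and Ndrg1 under 7 each and Itgb4 under 6. The comparison with type I and transitional nuclei under alternatives, and leaving out a library for the shares, were added after seeing the data. Genes with few UMIs, such as Pdpn, Spock2 and Csf1r, are limited by depth.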

Other observations

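Some genes differed between libraries inside the class. Il1rapl1, a synaptic adhesion gene, stood at 0.245, 0.690, 0.0641 and 0.0693 UMIs per 10000 in the members of A, B, C and D, 10.8-fold from lowest to highest, against 2.64-fold in other nuclei. An Il1rapl1 UMI was found in 20.3, 21.5, 6.30 and 7.22% of these members. The share in B was thus near that in A, and the higher level in B came from more UMIs in the nuclei that had one. Cebpb, a C/EBP family factor, stood at 1.39 in A and at 0.194 in B, and spanned 7.93-fold in members and 6.71-fold in other nuclei. Camk1d, a calcium-dependent kinase, stood at 24.1, 7.76, 7.89 and 8.22 in members and 25, 9.03, 8.4 and 8.16 in other nuclei. These 3 genes were picked after their values were seen.

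The most open peaks were ordered by their smallest fold in libraries with at least 10 expected member counts. They lay in or near Pakap, Fmn2, Nrep, Aurkb, Sh3rf3, Rb1, Trp53bp2, Rasgrf2, Zfp438 and D030068K23Rik, none of which was among the listed type I genes. All but the Trp53bp2 and Rasgrf2 peaks were called on C and D alone. In B the Rb1 peak was at 1.17-fold, on 3 member counts. The Aurkb and Sh3rf3 peaks held 1 member count each in B. Their folds of 1.31 and 1.17 there came from setting counts under 3 to 3. In scaled peak counts without that floor, the Aurkb peak stood at 0.0094 in members of B against 0.0215 in other nuclei. The Sh3rf3 peak stood at 0.0094 against 0.0242, so both were lower in members of B. The peak in Pakap, chr4:57834046-57834944, was 3.88-, 2.62-, 3.47- and 3.82-fold more open on 13, 6, 38 and 29 member counts. The peak 8597 bp from Trp53bp2, chr1:182399922-182400570, was 4.39-, 4.13-, 3.10- and 3.00-fold more open on 25, 13, 47 and 45 counts. The least open peaks lay near Lyz1, Adamts18, Corin and Gm47939 and in Sf3b3, and the Lyz1 peak was at 0.106-fold in C and 0.0790-fold in D, on 4 and 2 member counts.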
